A study of Elaeis guineensis with 10 samples.

Results

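The 200 leaf genes whose read counts varied least among 10 clonal oil palms (Elaeis guineensis) are described here. They came from 8286 genes that were eligible and 26087 in the count tables. The tables list counting units, most of them pieces of a coding sequence, whose IDs name a scaffold and a running number. Units with the same ID apart from the last number were summed to a stem, which stands for a gene. The other units have MAKER-style IDs (MAKER is a genome annotation program), and each is 1 gene model. Of the eligible stems, those with the lowest standard deviation (SD) of log2 CPM over all 10 palms were taken, with the fruit phenotype ignored. CPM are read counts scaled to library size, here with edgeR's TMM factors. A stem was eligible with a mean of at least 20 CPM, fewer than 15 units, and a rank below the 100 most abundant stems.

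The libraries came from leaf RNA (frond 0 in the labels) of 5 palms with mantled fruit and 5 palms with normal fruit, all clonal plants raised from a single mother palm (ortet). The palms with mantled fruit are numbered 673, 687, 754, 765 and 770 (mantled 1 to 5 in that order), and those with normal fruit 753, 758, 764, 767 and 768 (normal 1 to 5), in accession order. Each palm is a separate plant with 1 library, and no treatment or transgene is given in the labels. Reads assigned to units numbered 10236532 to 12544294 in a palm. Mantled 2 and normal 5 stood apart: of all eligible stems, 20.1% had mantled 2 as the palm farthest from the stem's mean and 30.8% had normal 5, against 3.15% to 11.7% for each of the other 8 palms.

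Mantled fruit is a floral abnormality of oil palms propagated through tissue culture, in which the stamens or staminodes turn into carpel-like structures. It is scored on flowers and fruit, not on leaves. Genes with steady transcript levels are of use as references: a measured change in another gene is commonly read against them, and genes of basic cell upkeep, such as those for protein synthesis, protein turnover and the cytoskeleton, are the usual candidates in plants. The count tables pair no ID with a gene name. The IDs of 0 of the 200 stems matched an entry of RefSeq's genes for the assembly EG11, where names and not sequences were compared. The genes are therefore given by ID, with no function, position or sequence. For the same reason the labelled tissue was not checked against marker genes. CPM values are not divided by gene length and are compared here between palms, not between genes. In these bulk samples fewer cells of a type and less RNA per cell cannot be told apart.

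The SD of log2 CPM over the 10 palms lay between 0.087 and 0.190 in the chosen stems, with a median of 0.170. The median over all eligible stems was 0.485, and 3.61 was the highest value. In the chosen stems the palm with the most reads had a median of 1.45 times the CPM of the palm with the fewest, and at most 1.63 times. Across eligible stems that median was 2.81-fold. The ratio stayed under 1.5-fold in 148 of the 200 stems (74%) and under 2-fold in all 200, against 2.17% and 20.9% of the eligible stems. These values chose the stems, so they describe the choice and test nothing. The membership moved with the palms used: 129 of the 200 stems were chosen again without mantled 2, 121 without normal 5 and 73 without both.

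**Figure D1:**
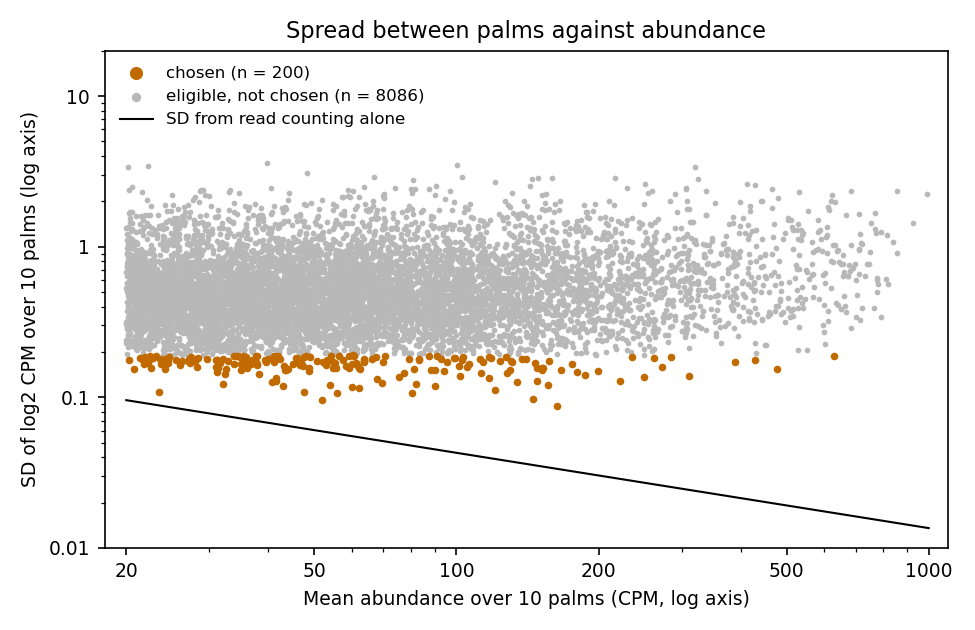
Each point is 1 eligible stem, with its mean CPM over 10 palms on a log axis and the SD of its log2 CPM over the same palms on a log axis; the 200 chosen stems form the lower edge and the black line is the SD that counting reads alone would give. The chosen stems run from 20.3 to 629.5 CPM and lie above the line.

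The steadiest stem, p5_sc00001_cds_155 on scaffold 1, had 150, 156, 174, 163 and 157 CPM in mantled palms and 174, 150, 163, 177 and 169 CPM in normal palms. The groups overlapped almost fully, and the highest palm exceeded the lowest 1.18-fold. Its counts ran from 1589 to 2103 reads. Next came maker-p5_sc00042-augustus-gene-7.49, with 55.1, 49.0, 46.6, 54.9 and 49.9 CPM in mantled palms, against 52.0, 56.1, 53.3, 54.5 and 47.5 CPM in normal palms. High and low values occurred in both groups. The stem maker-p5_sc00763-snap-gene-1.39 had 136, 127, 161, 137 and 145 CPM in mantled palms, against 148, 152, 151, 149 and 145 CPM in normal palms. Both its highest and its lowest value were in mantled palms, and the 5 normal palms lay between them with an SD of 2.61 CPM.

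On scaffold 25, p5_sc00025_cds_45 had 80.0, 73.7, 74.4, 85.6 and 71.6 CPM in mantled palms, against 90.6, 79.4, 82.3, 84.8 and 82.2 CPM in normal palms. Its highest value was in normal 1 and its lowest in mantled 5. For maker-p5_sc00018-snap-gene-4.71 the values were 52.7, 58.1, 56.1, 49.99 and 56.3 CPM in mantled palms, against 64.0, 60.4, 54.4, 53.7 and 51.8 CPM in normal palms. Normal 1 was again the highest. The stem p5_sc00084_cds_119 was the least abundant of the 10, with 21.6, 23.0, 25.3, 22.2 and 24.3 CPM in mantled palms, against 23.7, 24.3, 20.1, 25.7 and 24.0 CPM in normal palms, from 226 to 311 reads. Counting reads alone would give 67.3% of its variance, the largest such share among the 200 stems.

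A second stem of scaffold 1, p5_sc00001_cds_1653, had 43.2, 49.2, 42.3, 50.2 and 48.4 CPM in mantled palms, against 43.8, 51.6, 51.6, 45.3 and 49.95 CPM in normal palms. It was low in mantled 1, mantled 3 and normal 1. The stem maker-p5_sc00002-augustus-gene-29.52 had 139, 132, 127, 111 and 123 CPM in mantled palms, against 114, 113, 113, 121 and 112 CPM in normal palms. Here 4 of the 5 mantled palms lay above every normal palm, and mantled 4 lay below them all. The remaining pair were maker-p5_sc00116-augustus-gene-3.49, with 58.1 to 69.3 CPM in mantled palms, against 52.7 to 67.9 CPM in normal palms, and maker-p5_sc00120-augustus-gene-4.30, with 50.1 to 65.0 CPM in mantled palms, against 55.1 to 65.1 CPM in normal palms. In each of the 10 stems the ranges of the groups overlapped.

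**Figure D2:**
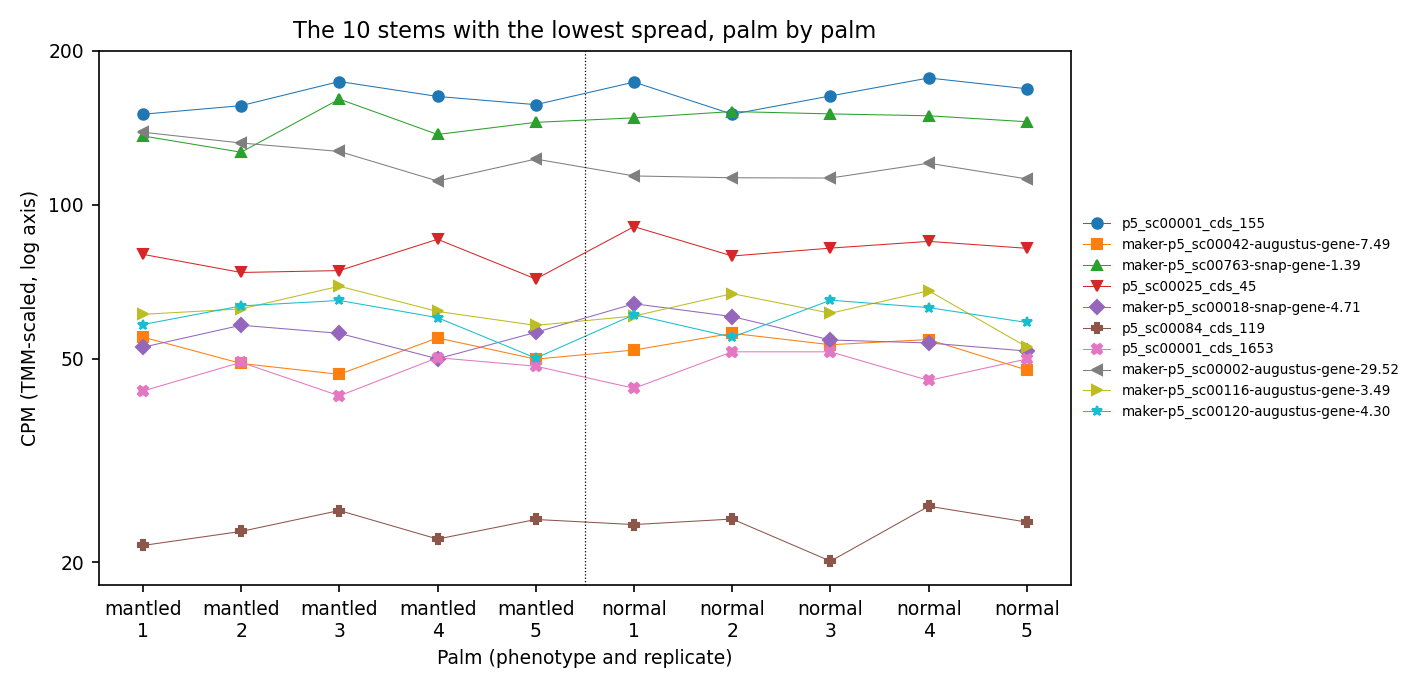
CPM (log axis) of the 10 stems with the lowest SD in each palm, with mantled palms left of the dotted line and normal palms right of it; thin lines join the values of 1 stem to guide the eye. The highest palm exceeds the lowest by 1.18-fold to 1.31-fold in these stems.

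The chosen stems ran from 20.3 to 629.5 CPM on average, and the eligible stems up to 989.5 CPM. The most abundant, maker-p5_sc00170-augustus-gene-1.32, had 687, 618, 831, 538 and 602 CPM in mantled palms, against 547, 600, 667, 644 and 561 CPM in normal palms, with its peak in mantled 3. It was followed by maker-p5_sc00022-snap-gene-13.43, with 435 to 501 CPM in mantled palms, against 419 to 591 CPM in normal palms. At the low end, p5_sc00002_cds_139 had 18.6 to 23.3 CPM in mantled palms, against 15.6 to 23.6 CPM in normal palms, with 147 reads in normal 5, the smallest count of any chosen stem. The stem p5_sc00008_cds_414 had 18.3 to 22.0 CPM in mantled palms, against 18.2 to 25.6 CPM in normal palms.

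At the limit of the choice the values ran on without a gap. The last stems inside it were maker-p5_sc00939-augustus-gene-1.52 and maker-p5_sc00130-augustus-gene-6.55, with SDs of 0.1893 and 0.1898. The next stems, left out, were p5_sc00050_cds_196 and p5_sc00039_cds_96, with SDs of 0.1901 and 0.1905. The first of those inside had the widest ratio of all 200 stems, 1.63-fold, with 42.1 CPM in mantled 3 and 25.9 CPM in normal 5. Among the chosen stems the largest departure of a palm from its stem's mean was in maker-p5_sc00780-augustus-gene-2.25. That stem had 42.9, 38.5, 38.2, 27.4 and 35.4 CPM in mantled palms, against 40.0, 39.0, 39.1, 37.9 and 37.9 CPM in normal palms, so that mantled 4 lay 0.45 below the mean on the log2 scale while the SD over the normal palms was 0.884 CPM.

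In most of the chosen stems the palms differed by more than read counting gives, while the contrast with unchosen stems follows from the choice. The SD expected from counting alone had a median of 0.059 on the log2 scale in the chosen stems and accounted for a median of 13.4% of their variance. In the eligible stems left unchosen the expected SD was nearly the same, 0.058, and its share of the variance was 1.31%. The chi-square of the counts over its degrees of freedom, which is near 1 where only counting varies, ran from 1.47 to 139 in the chosen stems, with a median of 7.38. Its median was 73.5 in the unchosen stems. HTSeq counts carry no molecular identifiers, so these figures cover counting error only.

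Abundance was much alike in the chosen and the eligible stems, with medians of 52.1 and 53.8 CPM. From 20 to 30 CPM, where counting error is largest, 34 of 1766 eligible stems (1.93%) were chosen. The share was 3.01% from 30 to 50 CPM, 2.39% from 50 to 100, 2.76% from 100 to 200 and 1.39% above 200 CPM. The make-up of the stems differed more. MAKER-style models were 109 of the 200 chosen stems (54.5%) and 47.2% of the eligible stems. Among numbered stems the chosen share was 4.15% for 10 to 14 units, 3.41% for 5 to 9 units, 0.901% for 2 to 4 units and 0.861% for a single unit. The median SD of the eligible numbered stems ran the same way. It was 0.442 for 10 to 14 units, 0.475 for 5 to 9, 0.562 for 2 to 4 and 0.595 for 1 unit. In the eligible MAKER-style models it was 0.445.

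The chosen stems were scattered over the genome scaffolds. They lay on 125 of the 928 scaffolds with an eligible stem, and 80 scaffolds held 1 each. The most on any scaffold was 6, on scaffold 1 among 308 eligible stems and on scaffold 19 among 115. Of the 91 numbered stems chosen, 0 had another chosen stem at the next or the previous running number of its scaffold, and 11 of the 4288 numbered stems left unchosen (0.257%) had a chosen one there. So few chosen stems had an eligible numbered neighbour that the 0 says little about their clustering.

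The choice leaves out stems in which 1 palm stands far off, so the shares of palms and the departures that follow describe the stems it left. The palm farthest from the stem's mean was mantled 2 for 20 of the 200 chosen stems (10%), normal 5 for 32 (16%) and normal 2 for 12 (6%), and each other palm for 17 to 22 stems. The median absolute departure of the chosen stems was 0.092 to 0.124 in mantled and 0.086 to 0.133 in normal palms on the log2 scale. Across eligible stems it was 0.328 to 0.453 in mantled and 0.242 to 0.537 in normal palms, with normal 5 the highest.

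**Figure D3:**
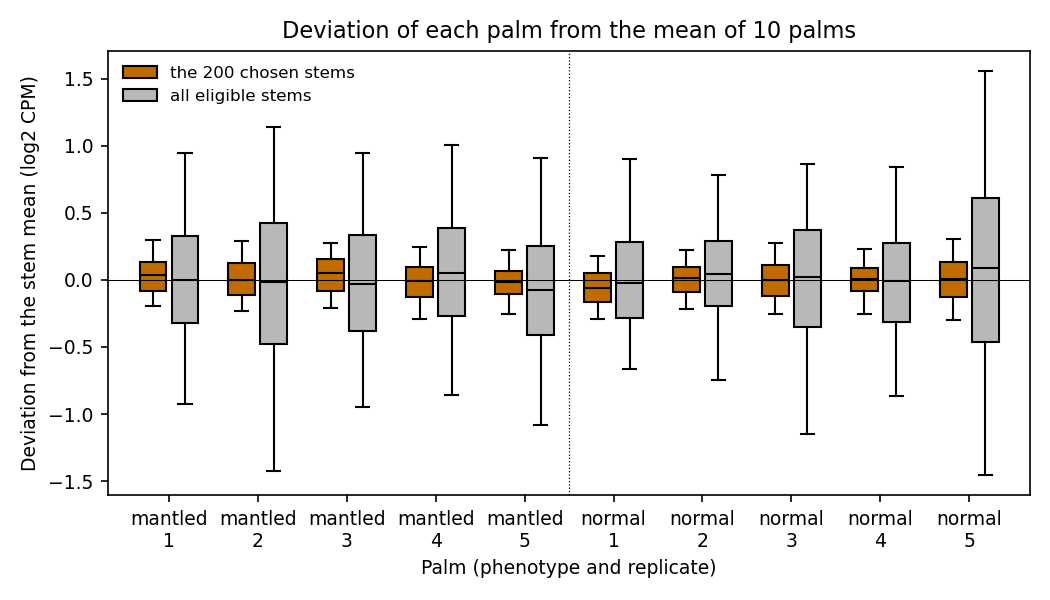
Log2 departure of each palm from the stem's mean of 10 palms, for the 200 chosen stems (left box of each pair) and all eligible stems (right box); boxes span the quartiles, the bar is the median and whiskers run from the 5th to the 95th percentile. Medians of the chosen stems lie between 0.051 in mantled 3 and -0.058 in normal 1, and the eligible stems spread most in normal 5.

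Differences between pairs of palms were small in the chosen stems, as the choice of a low SD over these palms makes them. Over eligible stems mantled 3 and normal 5 were the most unlike pair of the 45, with a median absolute log2 difference of 0.845. Over the chosen stems that pair differed by 0.196. Between mantled 3 and mantled 5, the most alike pair over eligible stems, the difference there was 0.224. Over the chosen stems the 45 pairs ran from 0.128 to 0.212. Their mean was 0.167 in 20 pairs of like phenotype and 0.165 in 25 pairs of unlike phenotype. Over eligible stems the means of the same pairs were 0.527 and 0.495. The next values also come from the log2 CPM that made the choice, which leaves out stems with a large shared variation, and nothing is read from the contrast. Principal component 1 took up 19.3% of the variance of the chosen stems and 57.8% of that of the unchosen ones. Pearson's r between stems over the 10 palms, which share libraries and scaling, had a median absolute value of 0.257 between chosen stems and 0.441 between unchosen ones.

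The choice was repeated on the palms of 1 phenotype and read in the palms of the other, which it had not used. The 200 stems chosen on the 5 normal palms had a median SD of 0.273 in the 5 mantled palms and of 0.115 in the normal palms that chose them. Over all 8155 stems eligible in that choice the median in mantled palms was 0.480, and 186 of the 200 stems (93%) were below it. In the other direction, the 200 stems chosen on mantled palms had a median SD of 0.1099 there and of 0.293 in normal palms, where the median over 8367 eligible stems was 0.490 and 182 stems (91%) were below it. In both directions the spread in the palms not used was below the eligible median and above that in the palms that chose. The lists had 19 of 200 stems in common, and all 19 were among the 200 stems chosen on 10 palms. A stem steady in both groups will mostly be steady over all 10 palms, so that last count follows largely from the choice.

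**Figure D4:**
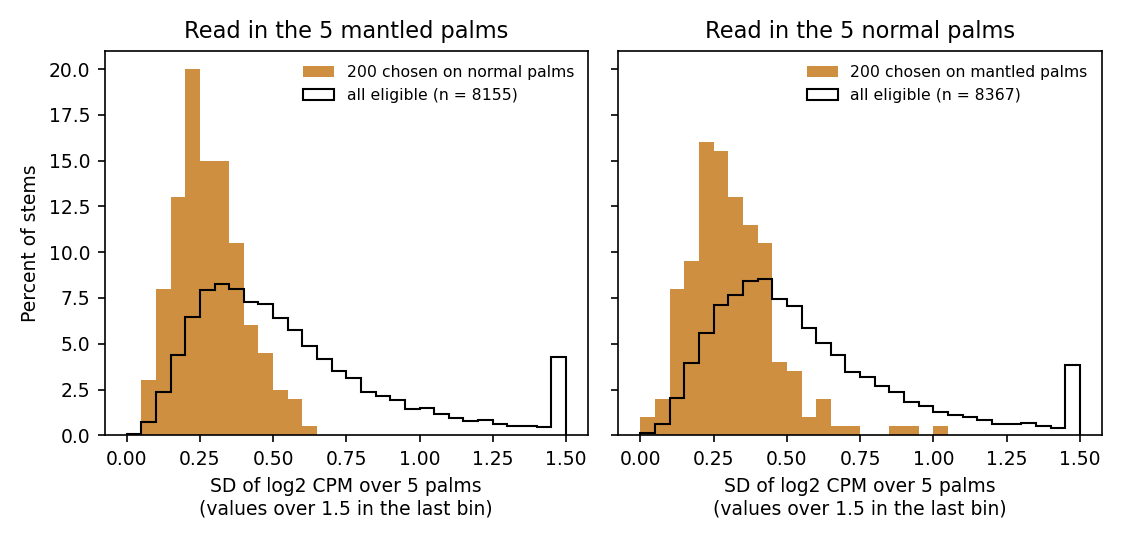
Percent of stems by the SD of their log2 CPM in 5 palms that took no part in the choice, for the 200 stems chosen on the other phenotype (filled) and for all eligible stems (outline). The filled distributions centre on 0.273 in mantled and 0.293 in normal palms, left of the medians of all eligible stems at 0.480 and 0.490.

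Each palm was also left out in turn. The 200 stems chosen on the other 9 palms departed from their mean by a median of 0.139 to 0.246 on the log2 scale in a left-out mantled palm and of 0.134 to 0.332 in a left-out normal palm, and in each of the 10 palms this was below the median of the eligible stems, 0.269 to 0.591. The share of the chosen stems below the eligible median differed between palms, from 67% in normal 1 to 92.5% in mantled 3. The largest median departures were 0.246 in mantled 2 and 0.332 in normal 5. The eligible stems also departed most in these palms, by medians of 0.497 and 0.591. In mantled 2, 30 of 200 stems chosen without it departed by over 1.5-fold and 4 by over 2-fold. In normal 5, 30 of 200 stems chosen without it departed by over 1.5-fold and 7 by over 2-fold.

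None of the 200 stems passed a test of mantled against normal leaves. In edgeR's quasi-likelihood test on 18030 stems, 0 of the 200 had a Benjamini-Hochberg adjusted p under 0.05, against 0% of all stems tested, and 0 had an unadjusted p under 0.05, against 0.749% of all stems (135) and 0.724% of eligible ones. By direction, 0 of the 200 were higher and 0 lower in mantled palms at that level, against 0.288% and 0.46% of all stems. DESeq2, run on every stem with a read, also gave 0 of the 200 at either level. Over all those stems it gave 0 at the adjusted and 257 at the unadjusted level. In 0 of the 200 stems did the groups fail to overlap, against 0.0887% of all stems tested and 0.0483% of eligible ones. A small SD over 10 palms leaves little room for a difference between groups, so nothing about the phenotype is read from these counts. The log2 difference, mantled minus normal, ran from -0.22 to 0.24 in the chosen stems, with a median of 0.02, and the median over eligible stems was -0.02. A low SD also makes the group difference and its standard error small, so the intervals describe the chosen stems and are no separate result. The 95% interval excluded a 1.5-fold difference in either direction for 191 stems (95.5%) and a 2-fold difference for all 200. It did so for 13.9% and 62.6% of the eligible stems. EdgeR's standard errors, which borrow from the spread of all stems, were 0.17 to 0.24 in the chosen stems.

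The chosen stems with the smallest p-values show the size of what remained. The stem maker-p5_sc00003-snap-gene-62.42 had 43.8, 43.9, 44.2, 42.5 and 39.7 CPM in mantled palms, against 32.6, 37.7, 32.8, 42.2 and 35.5 CPM in normal palms. Normal 4 alone of the normal palms reached into the mantled range, and the log2 difference was 0.24, standard error 0.17. EdgeR's p was 0.178 unadjusted and 1 after Benjamini-Hochberg adjustment. The stem p5_sc00045_cds_103 had 31.4, 24.9, 28.4, 33.8 and 28.2 CPM in mantled palms, against 24.5, 23.2, 26.6, 24.99 and 26.2 CPM in normal palms. Only mantled 2 fell within the normal range there, with a log2 difference of 0.23, standard error 0.17. EdgeR's p was 0.217 unadjusted and 1 after Benjamini-Hochberg adjustment.

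With lower values in mantled palms, p5_sc00120_cds_79 had 36.2, 40.7, 34.6, 44.3 and 32.9 CPM in mantled palms, against 42.3, 41.5, 48.1, 40.6 and 47.0 CPM in normal palms. Mantled 2 and mantled 4 lay among the normal palms, and the log2 difference was -0.22, standard error 0.18. EdgeR's p was 0.241 unadjusted and 1 after Benjamini-Hochberg adjustment. The stem p5_sc00793_cds_4 had 59.0, 59.5, 49.2, 52.7 and 60.0 CPM in mantled palms, against 57.3, 69.7, 72.4, 59.0 and 62.9 CPM in normal palms. Its groups overlapped between 57.3 and 60.0 CPM, and the log2 difference was -0.20, standard error 0.18. EdgeR's p was 0.290 unadjusted and 1 after Benjamini-Hochberg adjustment.

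A steady sum did not mean that the units of a stem kept steady shares of its reads, a measure that the choice did not use. For 80 of the 200 stems 2 or more units were abundant enough to test. The log2 ratio of a unit's reads to those of the rest of its stem had a median SD over palms of 0.443 for 289 units of these 80 stems, and of 0.447 for 11212 units of 3270 unchosen stems. The quartiles were 0.333 and 0.598 for the chosen stems and 0.334 and 0.594 for the unchosen. Counting alone would give a median of 0.199 and 0.205, at median counts of 84.3 and 104 reads per unit. Between the highest and the lowest palm a unit's share of its stem differed by a median of 10.3 percentage points in the chosen and 10.5 in the unchosen stems.

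Differences in unit shares between mantled and normal leaves were tested with edgeR's diffSpliceDGE on 7210 stems. No stem passed: 0 of the 80 chosen stems had an adjusted p under 0.05, against 0% of all stems tested. At an unadjusted p under 0.05 there were 4 of 80 (5%), against 1.07% of all stems tested and 0.985% of 3350 eligible ones. With Simes' method the count was 0 of 80, against 10 of all 7210 stems. Without mantled 2 the count rose to 21 of 80 (26.2%), against 8.01% of all and 7.86% of eligible stems, with 0 past the adjusted threshold and a lowest adjusted p of 0.0639 among the 80. The spread of a stem's total enters the fit of its units, so the choice of steady totals also bears on this test. That mantled 2 was left out was planned along with each other palm, and the counts without the other palms ran from 0 to 8 of the chosen stems. Over all stems tested those counts ran from 22 without mantled 5 to 133 without normal 3. Among the chosen stems these settings gave 0 and 8.

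The stem with the smallest of these p-values was p5_sc00006_cds_279, whose total was 40.8 ± 7.11 CPM in mantled palms, against 39.2 ± 3.28 CPM in normal palms (n = 5 palms a group, ± SD). Its unit 10 held 31.5%, 57.3%, 31.8%, 28.2% and 29.6% of the stem's reads in mantled palms and 48.7%, 47.9%, 45.5%, 49.3% and 45.1% in normal palms. Mantled 2 lay above every normal palm and the other 4 mantled palms below every one. Unit 8 ran the other way, with 52.0%, 28.5%, 48.9%, 48.8% and 43.1% in mantled and 34.0%, 37.4%, 38.6%, 39.0% and 37.7% in normal palms. For the stem as a whole the p-value was 0.0108 in edgeR's diffSpliceDGE and 1 after adjustment. In diffSpliceDGE's test of single units p was 0.391 for unit 10 and 0.593 for unit 8. It was lowest for unit 2, at 0.0594. Unit 2 held 3.68 ± 2.27% of the reads in mantled and 1.83 ± 0.637% in normal palms (n = 5 palms a group, ± SD).

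The next was p5_sc00134_cds_45, whose total was 84.8 ± 6.15 CPM in mantled palms, against 79.4 ± 7.15 CPM in normal palms (n = 5 palms a group, ± SD). Unit 9 held 52.3%, 68.4%, 40.4%, 37.9% and 37.5% of its reads in mantled and 60.9%, 61.7%, 54.7%, 63.3% and 59.0% in normal palms. Again mantled 2 was the highest of all palms and the other mantled palms were below all normal ones. Unit 4 held 26.8%, 15.2%, 40.3%, 38.0% and 37.5% in mantled and 20.6%, 22.7%, 26.9%, 21.5% and 22.3% in normal palms. For the whole stem the diffSpliceDGE p was 0.0203, and 1 after adjustment. In the test of single units p was 0.424 for unit 9 and 0.283 for unit 4. Unit 5 had the lowest, 0.0770. It held 1.88 ± 0.859% of the reads in mantled and 1.02 ± 0.548% in normal palms (n = 5 palms a group, ± SD).

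In mRNA libraries the gathering of reads at 1 end of a transcript is a common sign of RNA quality, and it was looked at after the values above were seen. The ID numbers give no strand, so the end unit of each stem, first or last, with the larger mean share of reads was taken. That unit held a median of 57.8%, 67.4%, 54.4%, 52.4% and 56.6% of the reads of the 80 chosen stems in mantled palms 1 to 5, and 61.0%, 59.6%, 57.2%, 58.9% and 59.1% in normal palms 1 to 5. The unchosen stems had the same high palm: 64.1%, 69.0%, 61.8%, 59.9% and 60.8% in mantled and 66.2%, 65.0%, 62.9%, 65.2% and 64.7% in normal palms. The part of this measure in the differences of unit shares was not tested, and the labels give no RNA quality per palm.

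**Figure D5:**
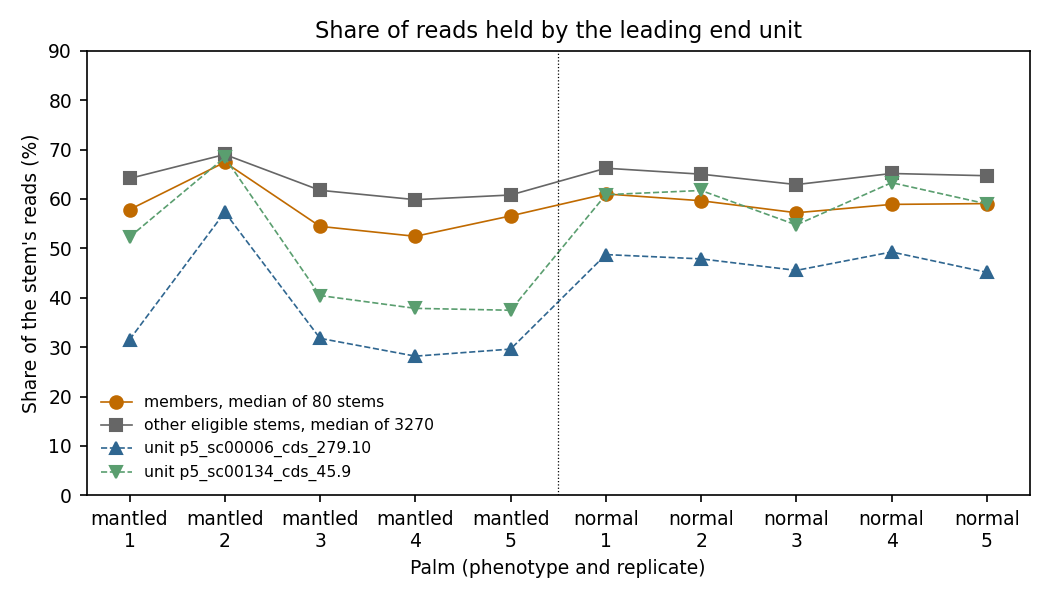
Share of a stem's reads (percent) held by its leading end unit in each palm, as the median of the 80 chosen stems and of 3270 unchosen stems (solid lines), and the share of unit p5_sc00006_cds_279.10 and of unit p5_sc00134_cds_45.9 (dashed). Lines join values to guide the eye; mantled 2 is the highest palm in each, with 67.4% in the chosen stems.

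As a group the 200 stems also show how the libraries were scaled. Before TMM scaling they held 1.62%, 1.75%, 1.65%, 1.546% and 1.65% of the assigned reads in mantled palms 1 to 5 and 1.44%, 1.68%, 1.76%, 1.65% and 1.20% in normal palms 1 to 5. Normal 5 was the lowest, and there the 100 most abundant stems held 25.1% of the reads, against 11.5% to 18.9% in the other palms. After scaling, with a TMM factor of 0.754 for normal 5, the sum of the 200 stems was 15359 to 16441 CPM in mantled palms, against 15032 to 16123 CPM in normal palms. Factors made from the 200 stems alone differed from the TMM scaling by 0.049 (mantled 3) to -0.060 (normal 1) on the log2 scale. The stems were chosen on TMM-scaled values, so this nearness follows in part from the choice.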

How the data were processed

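Leaf RNA of 10 palms was analysed, 5 mantled and 5 normal. The authors deposited raw read counts per unit, 1 table per palm, with no normalisation. Per the labels' protocols, stranded paired-end mRNA libraries were sequenced. HTSeq 0.6.1p1 and TopHat2 2.0.13 are listed, per the submitters' processing notes, with Trim Galore 0.4.0 and FastQC 0.11.3. For build, annotation and strand setting the sources used here give no entry, so it is not known whether reads of overlapping antisense genes were counted apart. Reads in no unit (31.9% to 35.7% of those listed), ambiguous reads (18.2% to 20.6%) and reads with no unique alignment (2.78% to 5.72%) were left out.

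Units were summed per stem, and 18030 of 26087 stems passed edgeR's filterByExpr. Log2 CPM used TMM factors and a prior count of 2. Of 8628 stems with at least 20 CPM, 243 had 15 or more units and 100 were the most abundant (1 in both). Tests of stems used R 4.3.3 and edgeR 4.0.16 (robust glmQLFit, glmQLFTest), two-sided, and unit shares with diffSpliceDGE, with a pseudocount of 0.5 in log ratios, Benjamini-Hochberg adjusted. DESeq2 1.42.0 was an alternative. Both tests and the choice were also run on simulated data with planted changes, as a check of the code. No power to find differences as small as those in the chosen stems is read from it. No pair of libraries was alike within sampling noise (chi-square over degrees of freedom at least 25.7). Planned lists of named genes were not applied, since the IDs of 0 of 100342 units matched a RefSeq entry. Factors from the 200 stems and the end-unit share were added after seeing the data. The stems, the rule and the lists were chosen with earlier results of these data known. Stems are named by fixed ranks: the 10 lowest SDs, the extremes of abundance, the limit of the choice, the smallest p-values and the largest departure.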

Additional observations from a re-analysis of the deposited data

Results flagged for a closer look

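In 76 sets of 5 palms (library measures and the named stems and units), 5 had a palm far from the other 4, where chance gives about 1 in 20 sets, and the sets are not independent. Unit 10 of p5_sc00006_cds_279 held 57.3% of its stem's reads in mantled 2, against 28.2% to 31.8% in the other mantled palms. The summed CPM of the 200 stems was 15032 in normal 1, against 15896 to 16123 in the other normal palms, and their median departure there was -0.058 on the log2 scale, against 0.002 to 0.016. The stem maker-p5_sc00002-augustus-gene-29.52 had 121 CPM in normal 4, against 112 to 114 CPM in the other normal palms. The unchosen stem p5_sc00050_cds_196 had 37.3 CPM in normal 4, against 27.6 to 29.7 CPM in the other normal palms.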

How the results depend on the processing

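Of the 200 stems, 73 were also chosen without palms 687 and 768 (mantled 2 and normal 5) together, 74 with library totals alone as scaling, 102 with a minimum of 50 CPM (the 102 that reach it), 112 with palms 753 to 770 alone, 120 with the most abundant unit in place of the sum, and 133 by lowest tagwise dispersion. With 1 palm left out, 121 to 169 were chosen again (lowest without normal 5, then 129 without mantled 2); under the other 11 alternatives, 153 to 200. Keeping stems of 15 or more units let 9 of 243 enter, and keeping the 100 most abundant let 0 enter. The median SD of the 200 stems rose to 0.230 with library totals alone and was 0.166 to 0.170 with 1 palm left out. The median departure in a left-out palm was 0.134 to 0.332. The counts of 0 stems past an adjusted p of 0.05 held in all 18 alternatives for the phenotype and all 14 for unit shares, among all stems tested and among the 200. At an unadjusted p under 0.05, 0 of the 200 stems passed in each of the 18, while the count over all stems was 55 to 591. For unit shares it was 0 to 21 of the chosen stems (21 without mantled 2, 19 without palms 687 and 768 together) and 10 to 627 of all stems (597 and 627 under the same settings). The 4 stems named for their p-values kept their direction, with an adjusted p of 0.833 to 1. Factors made from the 200 stems were tried after the data were seen. Each palm is a separate plant and no palm number is shared between mantled and normal palms, so no paired analysis was run. Near 20 CPM counting alone gives an SD of up to 0.0957 (log2), which limits the spread that can be seen there.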
